A study of Rattus norvegicus with 44 samples.

Results

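L2.2 and L2.3 are clonal lines of rat neural precursor cells, and their messenger RNA was compared while both were still dividing in FGF2, the growth factor that keeps neural precursors in culture. By their labels L2.2 is an interneuronal precursor and L2.3 a multipotential neural precursor. The comparison took every array whose title gives one of these clones at day 0: replicates 1 and 3 of L2.2 and replicates 1, 2 and 3 of L2.3, which made 5 of the 44 Affymetrix arrays of the study. All 5 cultures grew on poly-lysine and laminin in DMEM/F12 with FGF2 and had not yet received the medium that starts differentiation, which holds B27 and a little fetal bovine serum but no FGF2. The labels name no genetic change or drug in either group. Each line is 1 clone and its replicates were sister cultures, so the tests set the difference between 2 single clones against the spread of cultures within a clone. L2.2 had 2 arrays at this day because 1 array of the study failed. The other clones, Ctx8, Ge2 and Ge6, and the later days, 3 and 7 of differentiation, were used only to place the differences.

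Neural precursors divide in response to FGF2 and hold back differentiation through Sox2, Notch signalling and the Id proteins. Precursors of the ventral forebrain that give GABAergic interneurons use Dlx homeobox factors, whereas Olig1, Olig2 and the receptor Pdgfra mark cells on the way to oligodendrocytes. Clones in the same medium can also differ in their metabolism: amino acid shortage and stress of the endoplasmic reticulum act through the factor Atf4 on amino acid transporters and synthetic enzymes, and low sterol acts through Srebf2 on the enzymes of cholesterol synthesis.

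Values are intensities made by the authors with RMA, and differences are log2 ± SE from limma, L2.2 minus L2.3, so that a positive value means higher in L2.2. A gene was called when its Benjamini-Hochberg adjusted p over all 12749 genes was under 0.05, and higher and lower are used below as calls only. The largest adjusted p of a called gene named here was 0.041, that of Npy. Intensities under 16.3, the 40th percentile of all values, lie near background, and the size of a difference that starts there is uncertain beyond its SE. Between genes the scale depends on the probes, so levels are compared only within a gene. For Igf2, Tubb3, Egfr, Shmt1, Nid1, Cdh11, Snrpn and Mbp no other probe set of the gene gave the same call. Slc1a3, Elavl2, Ntrk2, Nrarp, Slit2 and Sox2 had at least 1 other probe set with the same call and 1 that was not called. Some other probe sets with the same call gave much smaller differences, among them those of Col2a1 (0.33), Cd93 (-1.11) and Dock10 (-2.11).

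The arrays of each clone were close to each other. Across probe sets, whose values are not independent of each other, Pearson's r was 0.9963 for the 2 arrays of L2.2, 0.9965 to 0.9969 for the arrays of L2.3 and 0.9504 to 0.9511 between the clones. L2.3 was much closer to Ctx8, the other multipotential clone, at 0.9901 to 0.9911, while L2.2 reached at most 0.9705, with Ge6. Both clones carried the precursor mark Sox2, at a mean of 855 ± 5.20 (SD, n = 2) in L2.2 and 1346 ± 80.6 (SD, n = 3) in L2.3, and the cycling marker Mki67, which was not called. GABA synthesis genes were near background in both, and so were most microglial and endothelial genes. Of the Dlx genes, Dlx1 and Dlx5 were measured.

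Of the 12749 genes, 3180 (24.9%) were higher in L2.2 and 2312 (18.1%) lower, 43.1% in all. With sister cultures this close, small differences passed the test, and fewer genes also differed at least 2-fold: 566 (4.44%) were higher and 611 (4.79%) lower, 9.23% of all genes. Beyond 4-fold there were 175 and 242, beyond 16-fold 36 and 25, and beyond 64-fold 8 and 0. In all 1177 genes past 2-fold the arrays of the clones did not overlap, which held for 60.4% of all genes. The lower side was near background in 160 of the 566 and in 114 of the 611. The median difference of all genes was 0.03.

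**Figure D1:**
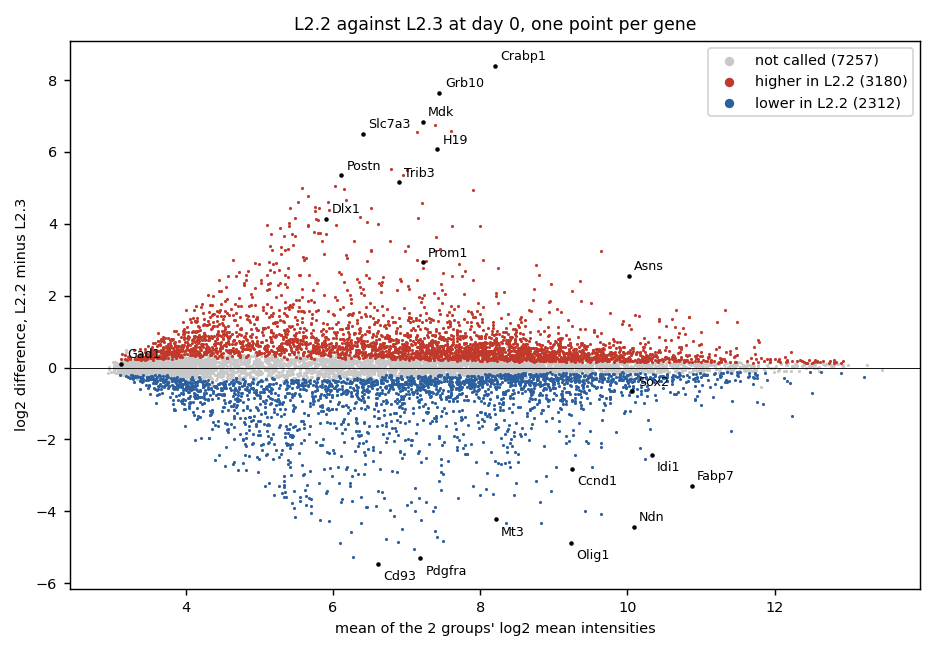
Difference between the clones at day 0 (log2, L2.2 minus L2.3) against the mean log2 intensity, 1 point per gene, with called genes in red (3180 higher in L2.2) and blue (2312 lower) and named genes in black. The widest differences upward, led by Crabp1 at 8.40, exceed the widest downward, led by Cd93 at -5.46.

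The other clones were used to place the pair. Among the 566 genes at least 2-fold higher in L2.2, both L2.2 arrays lay above all day 0 arrays of the other 4 clones in 362 (64%), and all L2.3 arrays lay below them in 89 (15.7%). Among the 611 lower genes, L2.2 lay below all other clones in 273 (44.7%) and L2.3 above them in 166 (27.2%). Over all genes tested L2.2 was above in 11.4% and below in 7.9%, and L2.3 above in 3.3% and below in 3.5%. L2.2 has fewer arrays, which makes it easier for it to fall outside the others. L2.3 was much closer to Ctx8, which makes it harder for L2.3 to do so. The genes past 2-fold were picked for a gap between L2.2 and L2.3, so each already lay beyond the other by choice. The shares over all genes are therefore no baseline for them, and these shares are a description.

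The largest difference of all was that of Crabp1, a cytosolic binding protein for retinoic acid, whose gene lies at chr8:64047431-64055469 of GRCr8, the RefSeq rat assembly. Its intensity was 5551 and 5245 in the L2.2 arrays and 17.9, 14.4 and 15.7 in those of L2.3. L2.3 was thus at the level of Ctx8, with 16.5, and Ge6 with 186 was the only other clone well above it. The difference was 8.40 ± 0.14 with an adjusted p of 3.96e-32. Its relative Crabp2, at chr2:175714862-175719208, which carries retinoic acid to the nucleus, read 1868 and 1940.4 in L2.2 and 20.7, 19.2 and 19.6 in L2.3, a difference of 6.58 ± 0.17. Here no other clone had a mean above 22.1.

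Secreted growth factors and their binding proteins were among the genes highest in L2.2. Mdk encodes midkine, a heparin-binding growth factor that retinoic acid induces, and measured 1509 and 1686 in L2.2 against 13.2, 14.0 and 14.4 in L2.3 (6.85 ± 0.12). It was between 17.8 and 19.8 in the other clones. Igfbp5, which binds insulin-like growth factors, measured 1282 and 1464 against 14.3, 14.3 and 14.9 (6.56 ± 0.14), and vascular endothelial growth factor, Vegfa, 309 and 259 against 30.9, 26.7 and 30.4 (3.27 ± 0.14). None of these genes had overlapping arrays. In the opposite direction Igfbp7, another binding protein of this family, fell from a mean of 474 ± 33.6 in L2.3 to 27.2 ± 3.02 in L2.2, by -4.13 ± 0.13. The neurotrophin receptor Ntrk2 was lower by -3.50 ± 0.16 and the epidermal growth factor receptor Egfr by -2.15 ± 0.18. The other probe set of Egfr was near background and not called. Of 48 growth factors and receptors measured, 14 were higher, 13 lower and 21 not called, against 24.9% higher and 18.1% lower of all genes. Their median was 0.07.

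Several imprinted genes, which are expressed from only 1 parental copy, separated the clones widely. Grb10, an adaptor that damps insulin and IGF receptor signalling, lies at chr14:90708653-90816399. It read 2442 and 2478 in L2.2 and 11.8, 11.5 and 13.7 in L2.3, a difference of 7.65 ± 0.13, and Ge6 with a mean of 426 and Ge2 with 89.7 lay between. H19, a noncoding RNA, and Igf2, a fetal growth factor, are neighbours at chr1:207160175-207162851 and chr1:207243873-207261263, and in mouse they share enhancers and an imprinting control region. H19 measured 1194 and 1629 in L2.2 and 20.1, 22.2 and 19.6 in L2.3, and Igf2 664 and 847 against 16, 17.0 and 15.8. Both were thus far higher in L2.2, and in Ctx8, Ge2 and Ge6 the mean of Igf2 was at most 15.9 and that of H19 at most 47.0. The differences were 6.08 ± 0.22 and 5.53 ± 0.12. Igf2 rests on 1 probe set: its other 3 had means between 11.6 and 18.0 in both clones and were not called.

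The receptors of this growth factor were higher in L2.2 too, although they were looked up after the values of Igf2 were seen. Igf1r, the signalling receptor, had means of 212 ± 4.70 against 95.5 ± 7.21 (1.15 ± 0.15), and Igf2r, the clearing receptor, 711 ± 8.19 against 241 ± 6.42 (1.56 ± 0.12). Plagl1, a zinc finger factor that acts on H19 and Igf2 in mouse, measured 783 and 703 against 94.6, 92.4 and 91.2, a difference of 3.00 ± 0.08, and was higher still in Ge2, at 1315. Not all imprinted genes went this way. Ndn, which encodes necdin, a growth suppressor of neurons, at chr1:125261059-125262658, measured 224 and 244 in L2.2 and 5029, 4989.5 and 5069.6 in L2.3, lower by -4.43 ± 0.10, and Snrpn of the same chromosome was lower by -1.17 ± 0.09. Among 19 imprinted genes measured, 10 were higher, 5 lower and 4 not called, against 24.9% higher and 18.1% lower of all genes.

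**Figure D2:**
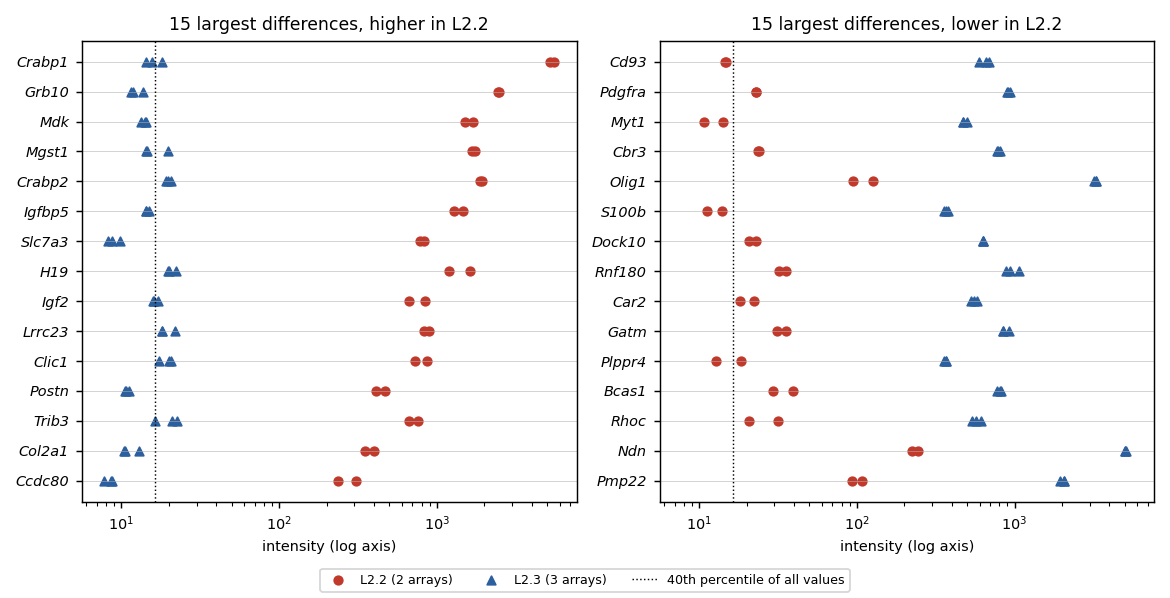
Intensity on each array, on a log axis, of the 15 genes with the largest differences in each direction, with L2.2 (2 arrays) as red circles and L2.3 (3 arrays) as blue triangles. In every row the clones are apart, and in most rows the lower clone lies near the dotted line at 16.3, the 40th percentile of all values.

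Transcription factors of the ventral forebrain differed in part. Dlx1, at chr3:76763864-76768454, measured 256 and 241 in L2.2 and 13.6, 19.3 and 10.5 in L2.3 (4.15 ± 0.19). Among the other clones only Ge6, with 156, was above 17.7. Dlx5 was 31.5 and 27.9 against 10.5, 18.0 and 13.8, a small step above background that was called at 1.11 ± 0.22 with an adjusted p of 5.38e-05. Bcl11b, also known as Ctip2 and found in striatal neurons, measured 185 and 133 against 12.1, 12.3 and 11.6 (3.71 ± 0.19), and Vax1, a factor of the ventral forebrain and optic stalk, 74.7 and 99.7 against 11.3, 12.1 and 11.8 (2.88 ± 0.13). The orphan receptor Nr2f1 went the other way, lower by -1.88 ± 0.09 from a mean of 60.5 to 16.4. The 15 measured genes of the Dlx and ventral list had 8 higher and 3 lower, against 24.9% and 18.1% of all genes. The median of the list was 0.25.

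The GABA synthesis genes were near background in both clones. Gad1 was 8.72 and 9.34 in L2.2 and 7.70, 8.72 and 8.84 in L2.3, with a difference of 0.10 ± 0.14 and an adjusted p of 0.628, and Gad2 differed by 0.02 ± 0.13. Levels this low limit what a difference could show. Of the 19 GABA and interneuron genes, Calb1, a calcium-binding protein, was higher at 49.6 and 51.6 against 8.42, 9.78 and 9.91 (2.44 ± 0.19), and the opioid precursor Penk by 1.5 ± 0.16. Calb2, which encodes calretinin, was higher by 0.93 ± 0.17. Erbb4, a neuregulin receptor, and Npy were lower by -0.60 and -0.33, with means of at most 16.4 in both clones. The call of Npy was lost without replicate 3 of L2.2 (-0.20) and without replicate 2 (-0.35) or 3 (-0.20) of L2.3. In all, 14 of the 19 were not called and 11 were near background in both clones, where a difference could hardly be seen. Of all 12749 genes 7257 were not called and 3959 were near background in both, while 24.9% were higher and 18.1% lower. Reln had means of 29.7 and 32.0, a difference of -0.14 ± 0.18.

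Some factors of other territories were higher in L2.2 and some lower. Pax6, a factor of dorsal radial glia, measured 494 and 453 in L2.2 and 68.0, 94.6 and 81.5 in L2.3, a difference of 2.55 ± 0.11, with Ge2 at 563 and Ge6 at 10.6. Irx3, of the caudal neural tube, was 528 and 564 against 55.7, 48.0 and 64.5 (3.29 ± 0.15), and Otx1, of the anterior neural tube, 90.3 and 57.1 against 12.2, 11.6 and 9.96 (2.68 ± 0.16). Gata2 and Runx1, best known from blood cell development and also used by subsets of neurons, were higher by 3.74 ± 0.12 and 3.38 ± 0.23 from a background level in L2.3. The telencephalic factors Lhx2 and Nfib were lower, by -2.29 ± 0.10 and -1.58 ± 0.07. Of 14 glutamatergic and dorsal forebrain genes, a list that holds Nfib, 2 were higher, 2 lower and 10 not called, and 8 were near background in both clones. Lhx2 and Nfib are not on the separate list of 24 regional identity factors, where 0 were lower by at least 2-fold. Of these 24, most of them near background, 3 were higher, 4 lower and 17 not called, with a median of -0.02. Among all genes 24.9% were higher and 18.1% lower.

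Genes of the oligodendrocyte lineage were low in L2.2. In cultures measured in bulk, fewer cells of a type and less RNA per cell cannot be told apart. Pdgfra, the receptor by which oligodendrocyte precursors respond to PDGF, at chr14:33360027-33408604, read 23.1 on both L2.2 arrays and 935, 902 and 913 on those of L2.3, a difference of -5.31 ± 0.13. Olig1 and Olig2 are bHLH factors of this lineage whose genes are neighbours at chr11:44000450-44002592 and chr11:43961585-43964961. Olig1 was 94.7 and 127 against 3270.0, 3292 and 3169 (-4.89 ± 0.18), and Olig2 13.0 and 12.6 against 195, 206 and 237 (-4.05 ± 0.20). L2.3, Ctx8 and Ge6 had clear levels of both factors, whereas Ge2 was near background, with 16.5 and 17.4.

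Cnp, an enzyme of myelinating cells, measured 67.9 and 78.6 in L2.2 and 1447, 1496 and 1434 in L2.3 (-4.32 ± 0.19), and Bcas1, of newly formed oligodendrocytes, 29.6 and 39.6 against 811, 772 and 820.5 (-4.55 ± 0.29). Myt1, a zinc finger factor of progenitors, was lower by -5.29 ± 0.12. The myelin gene Mbp, added after its values were seen, was low in both, with means of 22.5 and 40.7 (-0.85 ± 0.20). Of 18 genes of the lineage, 0 were higher, 10 lower and 8 not called, against 18.1% of all genes lower. The summed level of the list was 402 to 469.0 on the L2.2 arrays and 6922 to 7006 on those of L2.3. Such a sum follows its brightest members, here Olig1 with a mean of 3243.7 in L2.3. In both clones 7 of the 18 genes were near background. Sox10, which marks both oligodendrocyte and Schwann cells, was not called and near background in both.

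Among genes of neural precursors and radial glia, 10 of 17 were lower in L2.2, 3 higher and 4 not called. Their median was -0.65, and of all genes 18.1% were lower and 24.9% higher. Fabp7, the brain lipid-binding protein of radial glia, measured 604 and 590.2 in L2.2 and 5905, 5617 and 6077 in L2.3, a difference of -3.30 ± 0.09. The receptor phosphatase Ptprz1 was 154 and 149 against 1816, 1609 and 1538 (-3.45 ± 0.08), and the intermediate filament Nes, a mark of neural precursors, 223 and 239 against 723, 719 and 792 (-1.69 ± 0.11). L2.3 and Ctx8 were close to each other for all 3, at 6092, 1984 and 793 in Ctx8. Vim was lower by -1.0 ± 0.07 and Sox2 by -0.65 ± 0.07, so both were still at high levels in L2.2. In contrast Prom1, a membrane glycoprotein used to isolate neural stem cells, was higher, at 374 and 446 against 48.5, 63.0 and 50.7 (2.93 ± 0.14).

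S100b, a calcium-binding protein of glia, was 11.2 and 13.9 in L2.2 against 359, 367 and 377 in L2.3 (-4.88 ± 0.17), and L2.3 had the highest mean of the 5 clones. Mt3, a metallothionein of the brain, was lower by -4.22 ± 0.16, the matrix protein Sparcl1 by -3.51 ± 0.12 and the glutamate transporter Slc1a3 by -2.11 ± 0.10. Id3 and the gap junction protein Gja1 on the same list were higher, by 1.81 ± 0.11 and 1.36 ± 0.11. Of 21 astrocyte genes 8 were lower, 2 higher and 11 not called, against 18.1% lower and 24.9% higher of all genes.

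Neuronal genes split. The neurofilament chains Nefm and Nefl were higher in L2.2, Nefm at 147 and 174 against 12.3, 12.3 and 13.0 (3.67 ± 0.17) and Nefl at 87.8 and 92.4 against 13.2, 14.9 and 13.4 (2.71 ± 0.17). Ctx8, Ge2 and Ge6 had means of at most 13.4 of either. The neuronal tubulin Tubb3 was higher by 3.28 ± 0.09, on 1 of its probe sets. The microtubule protein Map2, by contrast, measured 194 and 207 against 1371, 1291 and 1431, lower by -2.77 ± 0.08, and the RNA-binding protein Elavl2 was lower by -2.48 ± 0.14. Of 36 pan-neuronal genes 8 were higher, 14 lower and 14 not called, against 24.9% higher and 18.1% lower of all genes.

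The AMPA receptor subunits Gria2, Gria3 and Gria4 were all lower in L2.2: Gria2 measured 99.4 and 68.7 against 1009, 713 and 882 (-3.38 ± 0.19), and Gria3 12 and 10.8 against 147, 113 and 163 (-3.61 ± 0.15). The potassium channel Kcnd2 was lower by -3.59 ± 0.20. Among 60 channels and receptors 13 were lower and 3 higher, when 18.1% and 24.9% of all genes were, and 42 were near background in both clones. Of 34 cadherins and neural adhesion genes 17 were lower, among them Cdh10 (-4.33 ± 0.21), the immunoglobulin proteins Cntn1 (-4.26 ± 0.19) and Opcml (-3.88 ± 0.14), and Pcdh17 (-3.60 ± 0.17). The 5 that were higher included Cntnap2, at 116 and 143 against 9.03, 9.81 and 10.9 (3.71 ± 0.20), and Cdh11 by 2.37 ± 0.12, the latter on 1 of its probe sets.

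Of 31 axon guidance genes 14 were higher and 5 lower, against 24.9% and 18.1% of all genes. The netrin receptor Unc5b measured 247 and 182 against 22, 29.3 and 21.9 (3.14 ± 0.16), the ephrin Efnb3 223 and 201 against 38.1, 43.9 and 31.2 (2.50 ± 0.17), and the receptor Robo2 80.9 and 95.4 against 14.9, 18.1 and 18.7 (2.36 ± 0.15). Its ligand Slit2 was higher by 2.12 ± 0.13. Sema6d was lower by -1.26 ± 0.12, with means of 294 and 699.7.

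Matrix genes differed in both directions. In L2.2 Postn, the matrix protein periostin, measured 412 and 470.0 against 10.6, 11.2 and 10.7 (5.35 ± 0.09), the cartilage collagen Col2a1 352 and 399 against 10.5, 12.9 and 10.4 (5.06 ± 0.13), and Sparc 833 and 706 against 43.4, 51.0 and 56.2 (3.94 ± 0.12). The other probe set of Col2a1 was near background in both clones, with means of 14.4 and 11.5, and higher by only 0.33. Ge2, the nonneuronal precursor by its label, had Postn and Sparc at 394 and 746, close to L2.2 in level, but Col2a1 at 10.9. Fibronectin, Fn1, was higher by 3.53 ± 0.16 and the laminin chain Lamb2 by 3.31 ± 0.15. Nid1, a basement membrane linker, went from a mean of 276 ± 23.7 in L2.3 to 21.1 ± 2.92 in L2.2 (-3.72 ± 0.14), and the integrin chain Itga8 and the matrix protein Fbln2 were lower by -3.32 ± 0.15 and -3.45 ± 0.18. Of 35 mesenchymal and matrix genes 15 were higher and 5 lower, and of 20 collagen IV, laminin and integrin genes 6 and 8. The shares of all genes were 24.9% higher and 18.1% lower. The smooth muscle genes Tagln and Acta2 were not called.

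Several components of the Notch pathway were lower in L2.2. Notch1 measured 53.1 and 55.5 against 290.2, 273 and 305 (-2.41 ± 0.09), and the ligand Dll1 18.6 and 15.7 against 106, 102 and 109.9 (-2.63 ± 0.17). Nrarp, a target and inhibitor of the pathway, was 29.6 and 28.3 against 218, 229.6 and 231 (-2.96 ± 0.15), and the target Hey1 was lower by -1.47 ± 0.11. The mean of Notch1 in L2.2 was below that of all other clones, the next being Ge6 at 231. The ligands Jag1 and Jag2 were higher, by 0.92 ± 0.19 and 1.38 ± 0.11, and Notch2 was not called. Over the 18 genes 8 were lower, 5 higher and 5 not called, against 18.1% lower and 24.9% higher of all genes.

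Of 23 BMP and TGF-beta genes 12 were higher, 1 lower and 10 not called, against 24.9% higher and 18.1% lower of all genes. Id1 and Id3, inhibitors of differentiation that BMP signalling induces, measured 254 and 237 against 46.5, 61.9 and 57.0 (2.17 ± 0.13) and 1309.5 and 1399 against 396, 381 and 382 (1.81 ± 0.11). Id3 had its highest mean in L2.2, whereas Ge2 had more Id1, at 758. The ligand Bmp4 was higher by 1.40 ± 0.26, and Id2 was the 1 lower gene, at -1.13 ± 0.12. In both clones 10 of the 23 were near background.

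Of 18 FGF and ERK targets 4 were higher in L2.2, 6 lower and 8 not called, although both clones were in FGF2. Among all genes 24.9% were higher and 18.1% lower. Egr1, an early gene of ERK signalling, measured 24.8 and 25.5 in L2.2 against 388, 384 and 326 in L2.3 (-3.86 ± 0.17), and the orphan receptor Nr4a1, also an early gene, 11.2 and 12.4 against 141, 179 and 162 (-3.76 ± 0.14). Myc was 15.9 and 12.8 against 178, 171 and 163 (-3.57 ± 0.15), and cyclin D1, Ccnd1, 223 and 233 against 1664, 1581 and 1619.7 (-2.83 ± 0.17). Ctx8 had L2.3-like levels of these, from 141 for Nr4a1 to 1395 for Ccnd1, while Ge2 and Ge6 were low in Myc, at 14.4 and 22.3. Feedback genes of the same pathway were mixed: the phosphatase Dusp6 was higher, at 2136 and 2277 against 1252, 1248 and 1207 (0.84 ± 0.12), Etv5 and Spry1 were not called, and Spry2 was lower by -0.88 ± 0.11.

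Of 38 DNA replication and mitosis genes 26 were not called, 5 were higher and 7 lower, with a median of -0.08, while 7257 of all 12749 genes were not called. There was 1 difference past 2-fold, that of cyclin E2, Ccne2, from a mean of 615 to 211 (-1.55 ± 0.20). A difference that was not called is not shown to be absent. Of 18 D cyclins, CDK inhibitors and their relatives 9 were lower, 4 higher and 5 not called. Among all genes 18.1% were lower and 24.9% higher. Beside Ccnd1, cyclin D2, Ccnd2, was lower by -1.03 ± 0.12 and the CDK inhibitors Cdkn2c and Cdkn1a by -1.79 ± 0.16 and -1.61 ± 0.12, Ccnd2 and Cdkn1a being added after their values were seen. The imprinted inhibitor Cdkn1c was higher, at 681 and 762 against 341, 329 and 313 (1.14 ± 0.14), and cyclin D3, Ccnd3, was higher by 0.86 ± 0.08.

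**Figure D3:**
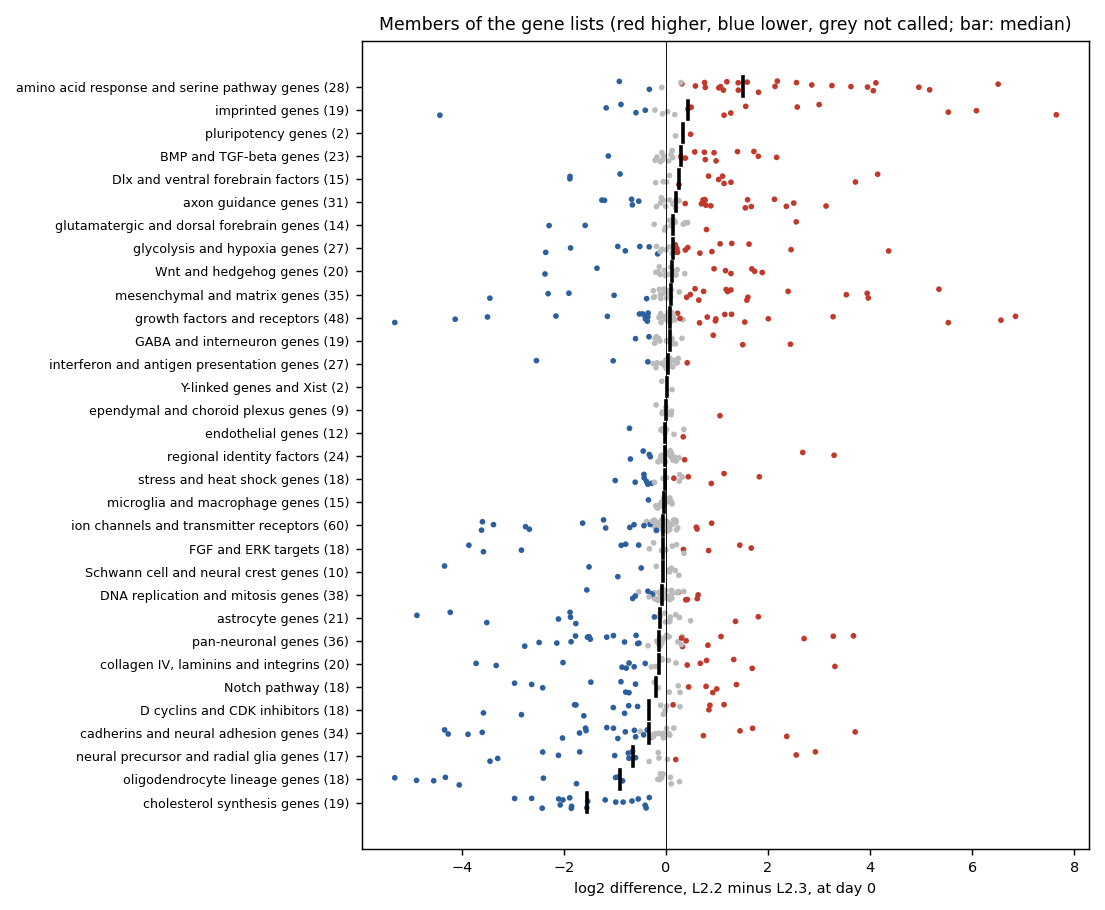
Differences at day 0 (log2, L2.2 minus L2.3) of the measured members of 32 gene lists, 1 point per gene, ordered by the median (black bar), with called genes in red and blue and the number of members in brackets. The amino acid list stands at the top with a median of 1.5 and the cholesterol list at the bottom with -1.55.

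The list with the highest median was that of the amino acid response and serine pathway. Of its 28 measured genes 24 were higher in L2.2, 2 lower and 2 not called, with a median of 1.5 against 0.03 for all genes, where 24.9% were higher. Slc7a3, a cationic amino acid transporter, measured 824 and 787 against 8.68, 9.74 and 8.22 (6.51 ± 0.16), Trib3, a pseudokinase induced by Atf4, 756 and 664 against 22.5, 21.0 and 16.4 (5.16 ± 0.13), and Chac1, which degrades glutathione, 1382 and 1279 against 44.6, 41.5 and 42.7 (4.95 ± 0.21). All arrays of L2.2 stood more than an order of magnitude above those of L2.3. The stress factor Nupr1 was higher by 4.11 ± 0.14 and Atf5, a relative of Atf4, by 3.62 ± 0.16.

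Other members were chosen for mention after their values were seen. Atf4 itself, the factor at the centre of this response, was 4464 and 4450.3 against 1438, 1501 and 1499.8 (1.59 ± 0.06), Asns, asparagine synthetase, 2467 and 2558 against 438, 416 and 427 (2.56 ± 0.10), and Ddit3, the factor also called CHOP, 354 and 361 against 18.7, 20 and 26.3 (4.06 ± 0.17). The mitochondrial enzyme Pck2 was higher by 3.95 ± 0.14. Against this stood Hspa5, the main chaperone of the endoplasmic reticulum, which was lower, at 960.2 and 983 against 1826, 1739.8 and 1927 (-0.91 ± 0.08). Shmt1 differed by -0.08 and was not called, although its other probe set was lower. The summed level of the list was 34913 to 35298 on the L2.2 arrays and 14736 to 14988 on those of L2.3.

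L2.2 was not alone in this. The median level of the 28 genes was 908.7 in L2.2, 821.1 in Ge2 and 612.3 in Ge6, but 244.8 in L2.3 and 256.3 in Ctx8. Asns had 2334 in Ge2, 1762 in Ge6 and 428 in Ctx8, and Chac1 had 858, 1306 and 49.1 in the same order. The clones labelled multipotential had the lowest medians. Ddit3 did not share this order and was at most 83.4 in any clone but L2.2.

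The promoters of this list were searched for the letters TGATGNAA, a simplified form of the composite C/EBP-ATF element chosen with the list's values known, to which Atf4 and a C/EBP partner can bind, on both strands of the window from 250 bases before to 50 after the start of each gene in RefSeq (GRCr8). Of the 28 genes 24 matched a window by gene ID. The letters were in 5 of these (20.8%), against 3.82% of all 27457 windows and 2.2% of the 10485 windows of genes measured here. The 5 genes were Trib3, Chac1, Slc7a1, Pck2 and Herpud1, of which Slc7a1 and Herpud1 were higher by 1.07 ± 0.10 and 2.14 ± 0.10. Slc7a1 and Herpud1 are named for these letters, after their values were seen. The windows of Trib3 and Chac1, the genes with the largest differences among the 5, are shown, with the letters in capitals as they read on the strand of the gene. In both the match is on the opposite strand, and its first base lies at -21 from the start in Trib3 (chr3:161275484-161275783, minus strand) and at -167 in Chac1 (chr3:126795881-126796180, plus strand). A match describes these letters and is not evidence of binding, and windows without it say nothing about the factor.
Trib3: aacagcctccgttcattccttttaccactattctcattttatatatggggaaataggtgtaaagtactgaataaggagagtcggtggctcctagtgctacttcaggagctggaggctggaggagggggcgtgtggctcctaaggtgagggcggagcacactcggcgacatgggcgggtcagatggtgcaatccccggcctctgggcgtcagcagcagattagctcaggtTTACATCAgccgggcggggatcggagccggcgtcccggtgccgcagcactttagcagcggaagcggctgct
Chac1: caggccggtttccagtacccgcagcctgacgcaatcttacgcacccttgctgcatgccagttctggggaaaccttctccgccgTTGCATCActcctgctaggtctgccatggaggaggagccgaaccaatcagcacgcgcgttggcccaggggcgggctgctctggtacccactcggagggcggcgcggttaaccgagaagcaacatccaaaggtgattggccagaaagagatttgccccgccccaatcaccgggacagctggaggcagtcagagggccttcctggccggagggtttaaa

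Cholesterol synthesis was the list with the lowest median. All 19 measured genes were lower in L2.2, 12 of them at least 2-fold, with a median of -1.55, where 18.1% of all genes were lower. Hsd17b7, a late enzyme of the pathway, measured 27.1 and 34.4 against 242, 232 and 240.3 (-2.96 ± 0.14), the sterol sensor Insig1 145 and 148 against 915, 936 and 870.2 (-2.63 ± 0.12), and Idi1, which makes an isoprene unit of the chain, 598 and 514 against 2941, 2955 and 3029.5 (-2.42 ± 0.10). Msmo1, which removes methyl groups from the sterol, was lower by -2.10 ± 0.07. Fdft1 and Sqle, the enzymes that commit the chain to sterol, were lower by -1.88 ± 0.09 and -1.53 ± 0.11, both named after their values were seen.

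Here L2.2 was the lowest of the 5 clones. The median level of the 19 genes was 196.5 in L2.2, 336.1 in Ge2, 417.5 in Ge6, 479.1 in L2.3 and 584.4 in Ctx8. Against the mean of Ctx8, Ge2 and Ge6, 39.5% of all genes were called in L2.2, 21.2% higher and 18.3% lower, and 39.0% in L2.3, 16.9% higher and 22.1% lower. Of the 19 genes L2.2 was lower in 19, and L2.3 was higher in 10 and lower in 0. These comparisons share the reference arrays. The letters TCACNCCAC, a simplified form of the sterol regulatory element chosen with the list's values known, were in 0 of the 15 windows that matched, against 1.13% of all windows and 1.13% of those of genes measured here.

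**Figure D4:**
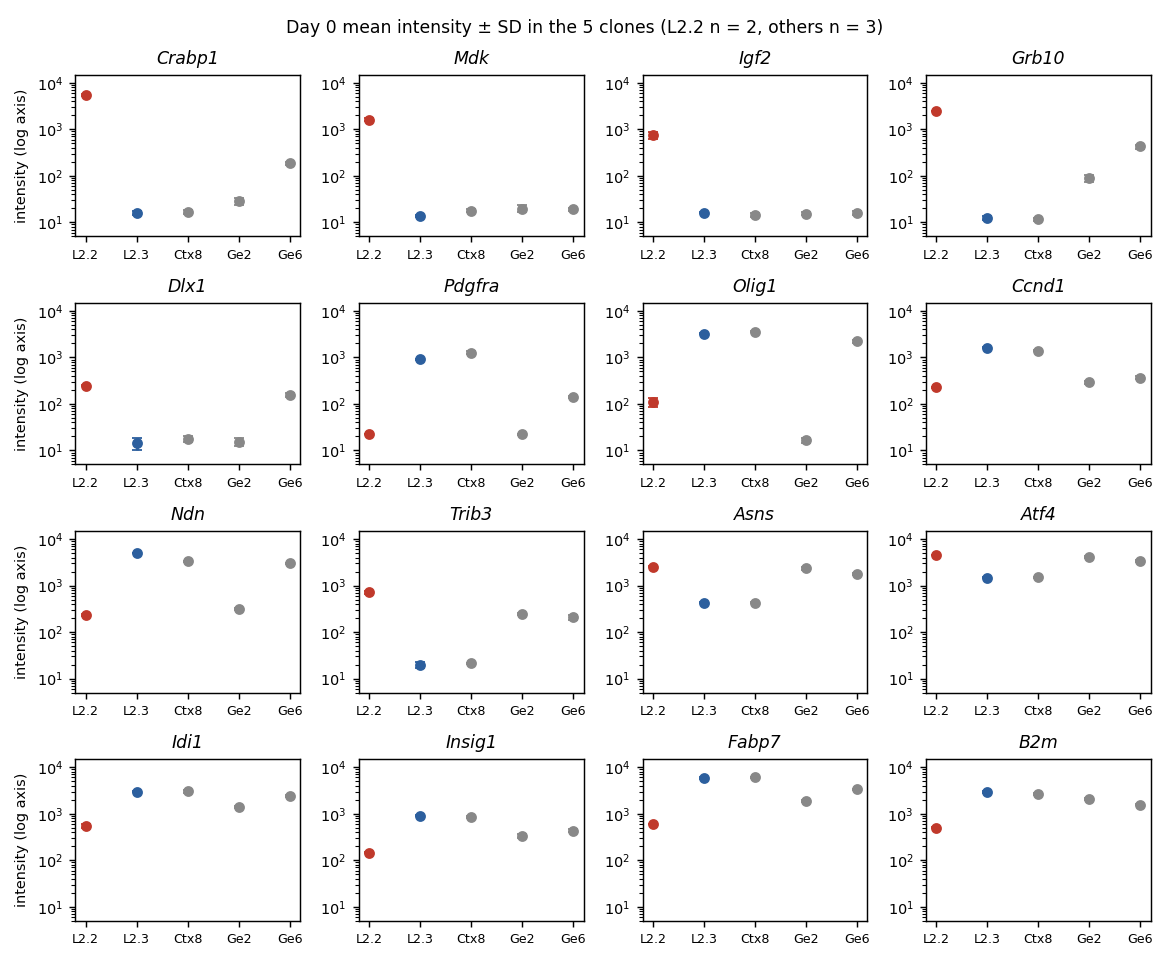
Mean intensity ± SD at day 0, on a log axis, of 16 genes in L2.2 (red, n = 2), L2.3 (blue, n = 3) and Ctx8, Ge2 and Ge6 (grey, n = 3). L2.2 is alone at a high level for Mdk and Igf2, shares its level with Ge2 and Ge6 for Asns and Atf4, and is the lowest clone for Idi1, Insig1, Fabp7 and B2m.

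The glucose transporters Slc2a3 and Slc2a1 were higher in L2.2, Slc2a3 at 239 and 250.1 against 14.0, 11.8 and 10.2 (4.36 ± 0.15) and Slc2a1 at 353 and 352 against 110.1, 120.4 and 112 (1.63 ± 0.10). Pdk1, a pyruvate dehydrogenase kinase, was higher by 2.45 ± 0.14. The isoforms Pfkp and Aldoc were lower, by -2.36 ± 0.08 and -1.87 ± 0.09, while Ldha and Aldoa, bright in both clones, were not called. Of 27 genes of glycolysis and hypoxia 13 were higher and 7 lower, against 24.9% and 18.1% of all genes. Their median was 0.13.

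B2m, the light chain of class I major histocompatibility proteins, measured 497 and 509 in L2.2 against 2847, 3009 and 2904 in L2.3 (-2.54 ± 0.10), and L2.2 was below all other clones, the next being Ge6 at 1573. Of 27 interferon and antigen presentation genes 23 were not called, and 19 were near background in both clones. Among all 12749 genes 7257 were not called and 3959 were near background in both.

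Marker lists of other cell types that a culture could hold were counted in the same way. For comparison, 7257 of all 12749 genes were not called and 3959 were near background in both clones. Of 15 microglial genes 14 were not called and 13 were near background in both, and the summed level of the list was 183.7 to 189.7 in L2.2 and 192.1 to 199.8 in L2.3. Of 12 endothelial genes 10 were not called, and sums of 155.7 to 178.6 and 156.9 to 176.4 overlapped. Cd93, a receptor of endothelial and myeloid cells and the gene with the largest fall, was 14.5 and 14.9 against 659, 688 and 595 (-5.46 ± 0.12). Its other probe set was lower by only -1.11, with means of 9.95 in L2.2 and 21.6 in L2.3. Pmp22, a myelin protein of Schwann cells, was lower at 93.5 and 108 against 1941, 2069 and 2073 (-4.34 ± 0.12). Of 10 Schwann cell and neural crest genes 4 were lower, 2 of them at least 2-fold, and 6 not called. The share of all genes that were lower was 18.1%. The summed level of this list was 225 to 248 in L2.2 and 2143 to 2291 in L2.3. Most of the L2.3 sum was Pmp22 itself, with a mean of 2027.7. Sox10 and Prx had means of at most 17.3 in both clones. What part cells of another type had in these results was not tested. Of 9 ependymal genes 8 were not called.

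Some of the widest differences fell outside these groups. Mgst1, a microsomal glutathione transferase, measured 1670.2 and 1754 in L2.2 and 14.2, 19.9 and 14.5 in L2.3 (6.74 ± 0.16), and Ge2 with 985 was nearest to L2.2. The chloride channel protein Clic1 was higher by 5.36 ± 0.17. Lower were Cbr3, a carbonyl reductase (-5.06 ± 0.13), Car2, a carbonic anhydrase of glia (-4.79 ± 0.16), Gatm, an enzyme of creatine synthesis (-4.71 ± 0.17), the guanine nucleotide exchange factor Dock10 (-4.86 ± 0.16) and the small GTPase Rhoc (-4.49 ± 0.14). In each of these the arrays of the clones were apart, Cbr3 for example at 23.6 and 24.0 against 789, 812 and 772.

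The same gap was then measured at days 3 and 7 of differentiation, and its change since day 0 was tested for every gene. Most wide differences changed against their day 0 direction, which includes genes whose order turned. Of the 566 genes at least 2-fold higher in L2.2 at day 0, 478 had such a change by day 7, and in 23 the gap widened. Their median gap went from 1.5 through 0.62 at day 3 to 0.33. Of the 611 lower genes 528 had such a change, and in 8 the gap widened. Their median gap, counted in the day 0 direction, went from 1.75 through 0.54 to 0.37. Genes whose order turned enter both later medians as negative values, so these are not medians of size. These genes were picked for a wide gap at day 0, so a smaller gap later is partly given by the choice. Over all genes the change from day 0 was called in 33.3% at day 3 and 39.0% at day 7. At day 3 itself 33.1% of all genes were called, 5.98% also at least 2-fold, and at day 7 37.6% and 5.75%. Of the 566, 286 were still higher at day 7 and 111 were lower, and of the 611, 345 were still lower and 89 higher.

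The gap changed in most of the amino acid and cholesterol genes. The median of the 28 amino acid genes went from 1.5 to -0.19 at day 3 and -0.39 at day 7, with a negative change in 24 and 25 of them, against 18.3% and 22.6% of all genes. Trib3 differed by -0.11 at day 3 and 0.03 at day 7, and Chac1 by 0.33 and 0.35. The median of the 19 cholesterol genes went from -1.55 to -0.20 and -0.36, with a positive change in 17 and 16, against 15% and 16.4% of all genes. Both lists are described for their extreme medians at day 0, and the change uses the same day 0 arrays. A change against the day 0 direction is thus partly given by the choice, and the shares of all genes are no baseline for it.

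Other differences stayed wide. Igf2 differed by 5.94 at day 3 and 5.33 at day 7, Crabp2 by 6.28 and 6.05 and Col2a1 by 6.23 and 5.30, and the change to day 7 was not called for any of the 3. Crabp1, in contrast, was down to a gap of 0.59 at day 7, with 397 in L2.2 and 262 in L2.3. Pdgfra reached 729.8 in L2.2 and 685 in L2.3, a gap of 0.08. Of the 19 GABA and interneuron genes the change to day 7 was positive in 10 and negative in 2, against 16.4% and 22.6% of all genes. Dlx5 went from 1.11 to 6.34, Gad1 from 0.10 to 4.85, Calb2 from 0.93 to 5.28 and Npy from -0.33 to 4.70, while Dlx1 widened by 2.04 ± 0.26 from a gap that was there at day 0. Gad2 reached 0.74, with 18.7 in L2.2 at day 7.

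**Figure D5:**
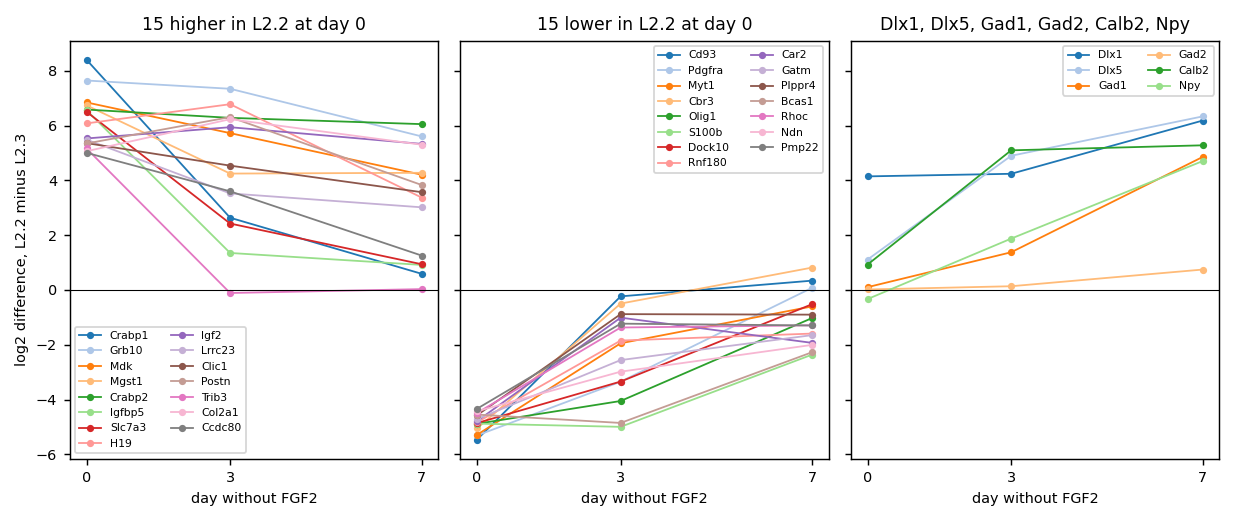
Difference between the clones (log2, L2.2 minus L2.3) at day 0 in FGF2 and at days 3 and 7 after its withdrawal for the 15 genes highest and the 15 lowest in L2.2 at day 0 and for 6 genes of GABAergic neurons. Most lines of the first and second panels approach 0, with Crabp2, Igf2 and Col2a1 staying above 5, and those of the last panel rise, least for Gad2.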

How the data were processed

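Total RNA extracted with Trizol was hybridised to Affymetrix arrays, per the labels' protocols. The deposited table gave each probe set a linear intensity on every array, which the authors computed with GCOS and RMA, per the submitters' processing notes, with versions and settings not given in the sources used here. RMA scales arrays to each other, so a difference in total RNA per cell would not show. The intensities were turned into log2 with no pseudocount. Of 24183 probe sets 17547 had 1 gene in the platform annotation, 213 several and 6423 none, and 17450 symbols were updated by gene ID. The probe set with the highest mean stood for its gene, which gave 12749 genes.

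One limma model (version 3.58.1 in R 4.3.3) with a mean for each of 15 groups was fitted to all 44 arrays, with 29 residual and 5.00 prior degrees of freedom, two-sided tests and Benjamini-Hochberg adjustment over all genes. The number of arrays limits the precision. In simulated data with the spread of these 12749 genes the day 0 comparison recovered 46 of 66 genes changed by 0.5 in log2, 67 of 67 changed by 1 and 67 of 67 changed by 2, with 4 false calls. There the clones were made equal in all other genes, whereas 43.1% of genes were called in the data. The adjustment depends on that share, so neither the recovery nor the false calls carry over to the calls made here.

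The members, the 32 gene lists and the tests were chosen with earlier results of these data known, so no list is independent support for its direction. Named were the 15 largest differences each way, the 8 largest each way among transcription factors, per list up to 4 higher, 4 lower and the 2 brightest genes not called, a few fixed genes, and the 5 largest changes of the gap each way; genes outside this rule are marked as chosen after their values were seen. Deviations of same-numbered cultures from their group means had correlations of 0.067 and 0.028. With 2 arrays in L2.2 its deviations are mirror images of each other, so this check can show little about pairing. The cultures were not treated as pairs. Alternatives were other scaling, a filter on dim genes, a pseudocount, other uses of the probe sets, other variance models, a minimum fold, fewer arrays in the fit, the replicate number as a block and leaving out each array. No detection call, scan date or batch entered the fit, so batch and clone cannot be told apart.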

Additional observations from a re-analysis of the deposited data

Results flagged for a closer look

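The difference between the clones itself differed between day 0 and the later days. By limma's test of the difference between the gaps, 4251 genes changed to day 3 and 4974 to day 7. Among genes at least 2-fold apart at day 0, the change to day 7 was largest upward in Cbr3 (5.87 ± 0.17), Cd93 (5.80 ± 0.16), Pdgfra (5.39 ± 0.17), Dlx5 (5.23 ± 0.29) and Tmem178a (5.17 ± 0.14). It was largest downward in Crabp1 (-7.81 ± 0.19), Vcam1 (-5.74 ± 0.22), Igfbp5 (-5.65 ± 0.18), Slc7a3 (-5.57 ± 0.22) and Trib3 (-5.13 ± 0.18).

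The clone whose mean differed between the days was not the same in these genes, although changes within a clone were not tested. Pdgfra had a mean of 23.1 in L2.2 at day 0 and 729.8 at day 7, against 917 and 685 in L2.3. At day 7 Cd93 and Cbr3 were at 13.1 and 20.9 in L2.3, and at 16.5 and 36.8 in L2.2. Dlx5 was at 809 in L2.2 and 10.5 in L2.3. Crabp1 was at 5398 and then 397 in L2.2, and at 16 and then 262 in L2.3. Igfbp5 was at 1373 and 1146 in L2.2, and at 14.5 and 608 in L2.3. Vcam1, an adhesion molecule, was at 135 in L2.2 and 8.72 in L2.3 at day 0 and at 75.4 and 257 at day 7, so its order turned. Slc7a3 and Trib3 were at 17.6 and 20.4 in L2.2 at day 7.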

How the results depend on the processing

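With a test against a 1.2-fold minimum, 2716 genes were called at day 0, and 2796 and 2137 changed their gap to days 7 and 3. With every probe set in place of 1 per gene, more features were tested and the counts were 8822, 7896 and 6552, and 1996 were called and at least 2-fold apart. Every other alternative for these 4 counts stayed within 1.5 times. Leaving out 1 array at a time gave 4501 to 5099 genes at day 0, 1169 to 1229 at least 2-fold, 4373 to 4837 for the change to day 7 and 3654 to 4038 for that to day 3. With the replicate number as a block the counts were 5477, 1181, 4997 and 4260. A pseudocount of 16 left 860 genes at least 2-fold apart.

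Of the genes named, those that turned sign were not called in either setting. Tagln was at 0.006 with the replicate block, and between -0.42 and 0.37 without 1 array. Without 1 array Reln lay between -0.48 and 0.20, Sox10 between -0.023 and 0.23, and Gad2 between -0.045 and 0.14. Among the called genes Npy alone lost its call, in 9 alternatives; the cause was not tested. Mki67, Spry1, Notch2, Shmt1, Ldha, Aldoa and Prx were called under at least 1 alternative. The lower side of 45 of the 151 named genes was near background, which limits the size of their differences.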

Other observations

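Mbp, the myelin basic protein, was low in both clones at day 0, with means of 22.5 in L2.2 and 40.7 in L2.3. The gap was -7.82 at day 3 and -5.42 at day 7, when Mbp was at 31.3 in L2.2 and 1310.1 in L2.3. Reln, not called at day 0, was 1753 in L2.2 and 269 in L2.3 at day 7, a gap of 2.70. Dusp6, 0.84 higher in L2.2 in FGF2, was 346 in L2.2 and 36.5 in L2.3 at day 7 without it, a gap of 3.24, while Etv5 differed by 3.17 at day 3. Nnat, an imprinted gene of the brain chosen after its values were seen, was 4469.7 in L2.2 and 1854 in L2.3 at day 0, 14.9 in Ge2, and 5309 against 707 at day 7.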
